A study of Mus musculus with 8 samples.

Results

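Interferon-stimulated genes are the genes that cells switch on when an interferon binds its receptor. A list of 46 of them was followed in livers of young *Rragc* S74N/+ and *Rragc* +/+ mice, and its members were found by gene symbol. Of these, 44 were among the 14506 genes listed for liver, and all 44 reached the mean of 10 normalized reads required for testing, as did 11174 genes in all. *Oas1a* and *Tgtp1* were not analysed here. Of the 44, 33 (75%) had a higher mean in *Rragc* S74N/+ livers, beside 51.3% of all tested genes, and 11 had a lower one. None passed the test across all genes. *Oasl2* and *Rtp4* were the members whose *Rragc* S74N/+ livers all lay above all *Rragc* +/+ livers (4.55% of members, beside 1.3% of all tested genes).

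Whole liver was profiled from 4 *Rragc* +/+ mice and 4 *Rragc* S74N/+ mice. *Rragc* encodes RagC, a GTPase that reports nutrient supply to the kinase complex mTORC1, and the knock-in mice carry the S74N substitution on 1 allele in all cells, blood cells within the liver included. Mice aged 3 months made up 3 of the *Rragc* +/+ group and 2 of the *Rragc* S74N/+ group, 1 mouse of each genotype was 2.5 months old, and *Rragc* S74N/+ replicate 4 was 2 months old. No treatment is given for either group, and replicate numbers only name a liver. The labels list each liver as a sample of its own but do not describe litters, so a p-value here measures the spread between these samples.

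Between 4313076 and 6632108 reads in listed genes stood behind each liver, and 3 to 4926 reads behind each value of a member. Libraries were primed at the poly(A) tail and read from the 3′ end, so levels of different genes need no correction for transcript length. Whether genes yield reads alike per copy was not tested. All levels below are normalized read counts per liver. In bulk liver, fewer cells of a type and less RNA per cell cannot be told apart. *Rragc* itself, on chromosome 4 from 123917446 to 123936997 (forward strand, GRCm38), stood at 84.1 ± 20.4 for *Rragc* +/+ against 76.6 ± 7.32 for *Rragc* S74N/+ (SD, n = 4 livers each). Its log2 fold change of -0.11 (SE 0.25) was within the spread between replicates, with p = 0.657 by a two-sided exact permutation test. A substitution need not alter the count, so this does not check the genotype labels.

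Type I interferons are made after sensors in the cytoplasm or endosomes meet foreign or misplaced nucleic acid. Through their receptor and the Janus kinases they activate a transcription factor complex that holds STAT2 and IRF9 and binds a short DNA element, the interferon-stimulated response element. Interferon gamma acts mainly through a different element, the gamma-activated site, and the genes downstream of either encode sensors, antiviral enzymes, protein modifiers and GTPases that attack intracellular microbes.

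Promoters were searched for the core letters of both elements. The sequences were not used to pick members, but the members were picked as genes that answer interferon. A high share of these elements is therefore not an independent result. RefSeq promoters of GRCm38.p6, running from 250 bases before to 50 bases after a start site, were found for 35 of the 44 members. The other 9, *Rtp4* and *Ifi27* among them, were not searched. The response element was taken as GAAA, any 2 letters and GAAA on either strand, and the gamma-activated site as TTC, any 3 letters and GAA, which reads alike on both strands. At least 1 response element core was in a promoter of 15 of 35 members (42.9%), against 1079 of 27025 genes with a promoter in the table (3.99%). For the gamma-activated site the counts were 8 of 35 members (22.9%) and 2582 genes overall (9.55%). Both were present in 3 members, and neither in 15.

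Below are the 100 bases before the start of 4 members. They show a promoter with several matches, one with both elements and one with a match on the opposite strand. The last is that of a member with no match whose genotypes did not overlap. Capitals mark the matches and each sequence is written 5′ to 3′ on the gene's own strand. They lie at chr4:156200819-156200918 (*Isg15*, reverse), chr11:58199456-58199555 (*Igtp*, forward), chr7:104465194-104465293 (*Trim30a*, reverse) and chr5:114896834-114896933 (*Oasl2*, forward) of GRCm38.p6.
Isg15: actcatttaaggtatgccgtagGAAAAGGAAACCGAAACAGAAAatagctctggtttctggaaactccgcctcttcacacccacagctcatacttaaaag
Igtp: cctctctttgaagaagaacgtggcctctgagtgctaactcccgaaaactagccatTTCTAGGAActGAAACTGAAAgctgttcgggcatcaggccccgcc
Trim30a: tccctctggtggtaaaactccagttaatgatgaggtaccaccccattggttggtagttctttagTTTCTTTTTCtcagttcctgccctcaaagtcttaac
Oasl2: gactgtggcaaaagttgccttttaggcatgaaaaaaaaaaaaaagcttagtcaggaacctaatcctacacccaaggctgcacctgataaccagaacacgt
In *Isg15* the capitals hold 3 overlapping response element cores, which begin 78, 72 and 66 bases before the start. *Igtp* carries a gamma-activated site 45 bases and a response element core 34 bases before its start. The match in *Trim30a* lies 36 bases before the start and is read on the opposite strand, and its other listed start has 1 match 2 bases after it, while the 300-base window of *Oasl2* held neither motif. A match is a string of letters and not a measured binding site.

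Members with and without these letters were described apart, leaving out those with no promoter to search, such as *Rtp4* and *Ifi27*. Of the 15 members with a response element core, 11 had a higher mean in *Rragc* S74N/+ livers, with a median log2 fold change of 0.36. Of the 20 without one, 16 were higher, with a median of 0.33. The 8 members with a gamma-activated site included 7 with a higher mean (median 0.39), and the 27 without one included 20 (median 0.31).

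Averaged over the list, the mean was higher in *Rragc* S74N/+ livers, with overlap between genotypes. The mean log2 level over the 44 members in replicates 1 to 4 was 6.16, 6.30, 6.64 and 6.42 for *Rragc* +/+ mice, and 6.56, 6.77, 6.44 and 7.02 for *Rragc* S74N/+ mice. *Rragc* +/+ replicate 3 lay above 2 of the *Rragc* S74N/+ livers. Group means were 6.38 ± 0.20 and 6.70 ± 0.25 (SD, n = 4 each), a difference of 0.32 on the log2(value + 1) scale or 1.25-fold. As a share of all reads in listed genes, the members took 0.178% ± 0.0083 and 0.206% ± 0.0261 (SD, n = 4 each).

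**Figure D1:**
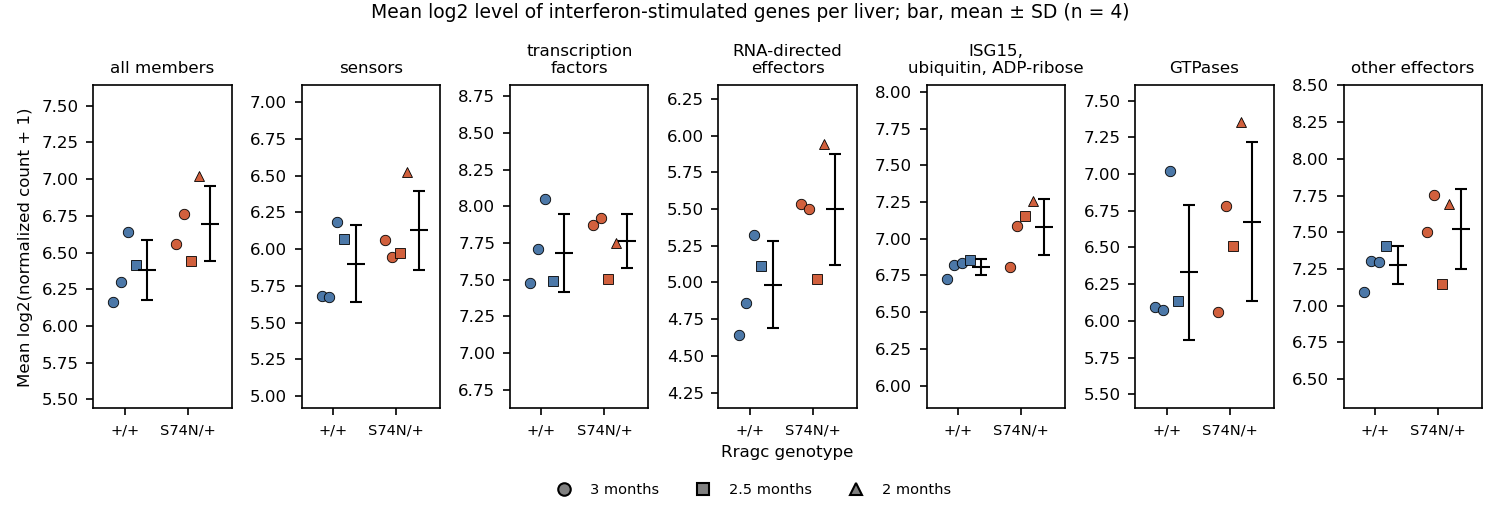
Mean log2(normalized count + 1) over all 44 members and over each role group, for each liver by *Rragc* genotype. Symbols give age, bars the mean ± SD of 4 livers, and each panel spans 2.2 log2 units. The 2-month-old *Rragc* S74N/+ liver is the highest over all members (7.02), and the groups overlap in every panel.

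Gene by gene, the adjusted test called no member. With limma and Benjamini-Hochberg adjustment over all 11174 genes, 0 of 44 members passed an adjusted p of 0.05, and 1 gene of the whole table did (0.00895%). The smallest adjusted p among members was 0.846 with limma, 0.812 with edgeR and 0.270 with DESeq2. At an unadjusted limma p under 0.05, 6 of 44 members (13.6%) were higher in *Rragc* S74N/+ livers, namely *Oasl2*, *Rtp4*, *Ifi27*, *Igtp*, *Trim30a* and *Herc6*, beside 2.37% of all tested genes. None of the 44 was lower at that level, beside 2.8% of all genes. The same unadjusted level was reached by 6 members with edgeR and 7 with DESeq2.

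Counts of direction showed the same lean. A higher mean log2 level in *Rragc* S74N/+ livers was found for 33 of 44 members (75%) and for 51.3% of all tested genes. The median log2 fold change was 0.33 (quartiles 0.10 and 0.55) over members and 0.01 (quartiles -0.23 and 0.28) over all genes. Members are not independent of one another, the list was chosen with earlier results of these data known, and no test was made of it. *Rragc* S74N/+ livers lay wholly above *Rragc* +/+ livers for 2 of 44 members (4.55%), against 1.3% of all genes. They lay wholly below for 0 members, against 1.64% of all genes.

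The members were also described by abundance. In the 22 members with a mean under 94.5 normalized reads, 19 had a higher mean in *Rragc* S74N/+ livers and the median log2 fold change was 0.46. In the 22 more abundant members, 14 were higher and the median was 0.21. The whole table shifted with abundance too, as 47.6% of 6917 genes with a mean of at least 50 were higher, beside 51.3% of all tested genes. The same split into 2 parts was not made over all genes. *Isg20* was the least abundant member and *Lgals9*, with a mean of 3326 normalized reads, the most abundant. *Isg20* reached the mean of 10 only through its *Rragc* S74N/+ livers (8.08 ± 4.06 against 11.9 ± 8.60, SD, n = 4 each). It is counted among the higher members, a direction tied to the filter.

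**Figure D2:**
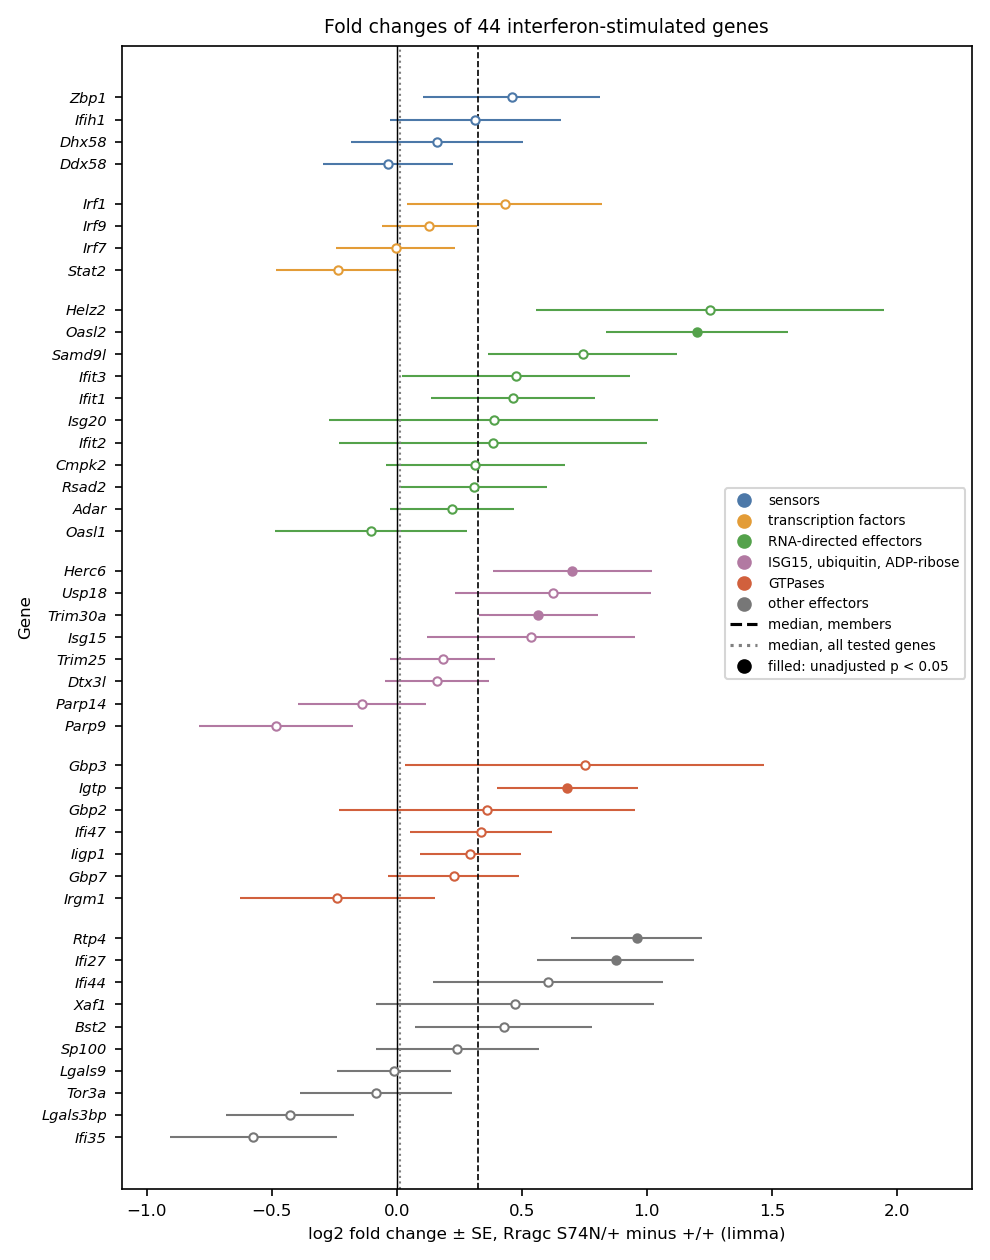
Log2 fold change (*Rragc* S74N/+ minus *Rragc* +/+) with its limma standard error for the 44 members, grouped by role. Filled points mark the 6 members with an unadjusted p under 0.05, the dashed line is the median of the members (0.33) and the dotted line that of all tested genes (0.01). Most points (33 of 44) lie right of 0.

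Of 4 nucleic acid sensors, 3 had a higher mean in *Rragc* S74N/+ livers (median log2 fold change 0.24), and none passed the test. *Ifih1* encodes MDA5, which detects long double-stranded RNA, and read 61.5, 88.8, 134 and 184 in *Rragc* +/+ and 103, 103, 160 and 192 in *Rragc* S74N/+ livers. Its groups overlapped almost fully (log2 fold change 0.31, SE 0.34, two-sided exact permutation p = 0.457). *Zbp1*, a sensor of Z-form nucleic acid that can trigger cell death, read 23.3, 20.6, 22.6 and 20.6 against 26.6, 21.3, 30.1 and 48.9. All but 1 of its *Rragc* S74N/+ livers lay above every *Rragc* +/+ liver, and the log2 fold change was 0.46 (SE 0.35, exact p = 0.0857), or 0.24 without the 2-month-old liver. *Ddx58*, the most abundant sensor, encodes RIG-I and stood at 146, 121, 229 and 236 against 175, 199, 140 and 177. Its *Rragc* S74N/+ values all fell inside the *Rragc* +/+ range (log2 fold change -0.04, SE 0.26, exact p = 0.943). *Dhx58*, the regulatory member of the same family, had a log2 fold change of 0.16 (SE 0.34).

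The transcription factors of the response had small differences relative to their spread. *Irf9*, the DNA-binding subunit of the complex that reads the response element, read 315, 312, 366 and 389 in *Rragc* +/+ and 352, 379, 442 and 342 in *Rragc* S74N/+ livers. That is a log2 fold change of 0.13 (SE 0.19, two-sided exact permutation p = 0.314) with overlapping groups. For *Stat2*, its partner, the counts were 188, 206, 212 and 155 against 225, 185, 133 and 120. The 2 youngest *Rragc* S74N/+ livers were its lowest, and the difference was -0.24 (SE 0.25, exact p = 0.343). *Irf7*, which amplifies type I interferon production and is itself interferon-induced, stood at 185, 169, 242 and 252 against 205, 286, 158 and 203. The group means of *Irf7* were 212 ± 41.2 and 213 ± 53.3 (SD, n = 4 each), with a log2 fold change near 0 whose sign turned with the scaling. *Irf1*, a target and mediator of interferon gamma, varied widely within each genotype, at 90.4, 172, 259 and 67.3 against 183, 170, 115 and 255 (log2 fold change 0.43, SE 0.39, exact p = 0.429).

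RNA-directed effectors held 1 of the 2 members that did not overlap between genotypes. These proteins bind, cut, edit or deplete RNA and its building blocks, and 10 of 11 had a higher mean in *Rragc* S74N/+ livers, with a median log2 fold change of 0.39. *Oasl2*, an oligoadenylate synthetase-like protein on chromosome 5 from 114896936 to 114912234 (forward strand), read 13.98, 29.9, 18.4 and 39.2 in *Rragc* +/+ livers. In *Rragc* S74N/+ livers it read 57.8, 53.3, 42.3 and 71.8. The groups did not overlap, although the closest values, 39.2 and 42.3, came from the 2.5-month-old pair. Its log2 fold change was 1.20 (SE 0.36), with a two-sided exact permutation p = 0.0286, the smallest that 4 against 4 livers allow, and an adjusted p = 0.846 with limma.

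The neighbouring relative of *Oasl2* did not share its values. *Oasl1*, which lies within 500000 bases of *Oasl2*, had a log2 fold change of -0.10 (SE 0.39) with livers from 27.0 to 80.6 in *Rragc* +/+ and 37.9 to 81.7 in *Rragc* S74N/+. That value was 0.47 among 3-month-old mice alone and 0.04 without the 2-month-old liver. How the authors' counting treated reads that fall in similar stretches of such relatives is not stated, so they could be lost or misplaced. The same holds for the *Ifit*, *Gbp* and immunity-related GTPase families.

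Other RNA-directed effectors overlapped between genotypes. *Samd9l*, a restriction factor of poxviruses, read 15.8, 22.4, 29.7 and 41.1 against 26.6, 56.0, 43.5 and 56.3. It had 3 *Rragc* S74N/+ livers above every *Rragc* +/+ liver (log2 fold change 0.74, SE 0.38, two-sided exact permutation p = 0.114). *Rsad2*, the most abundant of the group, encodes viperin, which makes a chain-terminating nucleotide. It read 140, 194, 137 and 134 against 137, 174, 144 and 342, so its log2 fold change of 0.31 (SE 0.29, exact p = 0.514) rested on the 2-month-old liver and was 0.01 without it. *Helz2*, a helicase that acts as a nuclear receptor coactivator, had the highest log2 fold change of any member, 1.25, and one of the widest spreads (SE 0.70). It read 8.39, 14.03, 72.1 and 25.2 against 127, 32.9, 16.7 and 113, and is described after its values were seen. The clustered *Ifit1*, *Ifit2* and *Ifit3* genes, whose products bind foreign RNA ends, had log2 fold changes of 0.46, 0.39 and 0.48, which were 0.22, 0.43 and 0.14 without the 2-month-old liver. *Adar*, the RNA-editing enzyme, stood at 0.22.

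**Figure D3:**
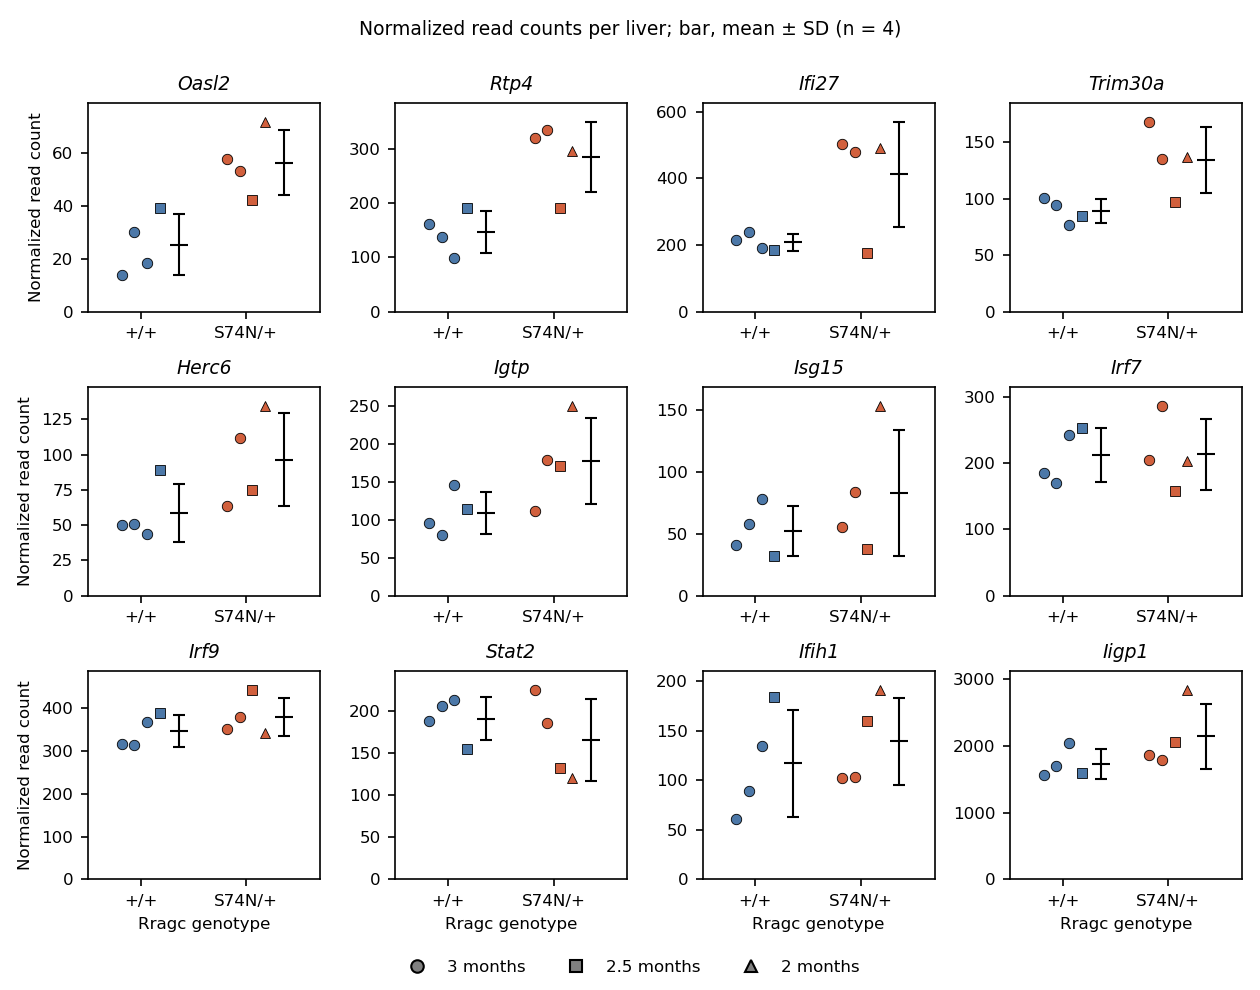
Normalized read counts of 12 members in each liver by *Rragc* genotype, on axes that start at 0. Symbols give age and bars the mean ± SD of 4 livers. *Oasl2* and *Rtp4* do not overlap between genotypes, *Ifi27* is high in 3 of 4 *Rragc* S74N/+ livers, and *Irf7*, *Irf9*, *Stat2* and *Ifih1* overlap.

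Genes of protein modification came next. They encode the ubiquitin-like protein ISG15, its ligases and protease, other ubiquitin ligases and ADP-ribose transferases, and 6 of 8 had a higher mean in *Rragc* S74N/+ livers (median log2 fold change 0.36). *Trim30a*, a tripartite-motif protein that restrains innate signalling (chromosome 7 from 104409025 to 104465193, reverse strand), read 101, 94.5, 76.4 and 85.0 in *Rragc* +/+ livers. In *Rragc* S74N/+ livers it read 168, 135, 96.95 and 137. The 2.5-month-old *Rragc* S74N/+ liver alone fell inside the *Rragc* +/+ range, and the log2 fold change was 0.57 (SE 0.24, two-sided exact permutation p = 0.0571). *Herc6*, a ligase that attaches ISG15 in mice (chromosome 6 from 57581000 to 57664632, forward strand), read 50.3, 50.5, 43.9 and 88.8 against 63.4, 112, 74.7 and 135. Here the 2.5-month-old *Rragc* +/+ liver was higher than 2 *Rragc* S74N/+ livers, and the log2 fold change was 0.70 (SE 0.32, exact p = 0.0857).

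*Isg15* itself (chromosome 4 from 156199424 to 156200818, reverse strand) did not separate the genotypes. It read 41.0, 58.0, 77.8 and 31.8 against 55.1, 83.5, 37.9 and 153. The 2-month-old liver was far above the rest, and the log2 fold change of 0.54 (SE 0.42, two-sided exact permutation p = 0.371) was 0.18 without it. *Usp18*, the protease that removes ISG15 and dampens receptor signalling, had a log2 fold change of 0.62 (SE 0.39), which was -0.09 among 3-month-old mice alone. *Trim25*, a ubiquitin ligase of the RIG-I pathway and the most abundant of the group, read 289, 456, 328 and 285 against 352, 435, 393 and 341 (log2 fold change 0.18, SE 0.21, exact p = 0.314). *Dtx3l*, *Parp9* and *Parp14*, neighbours on chromosome 16 that act in ADP-ribosylation, stood at 0.16, -0.48 and -0.14.

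Interferon-inducible GTPases disrupt the vacuoles in which parasites and bacteria live, and 6 of 7 had a higher mean in *Rragc* S74N/+ livers (median log2 fold change 0.34). *Igtp* (chromosome 11 from 58199556 to 58207591, forward strand) read 95.1, 80.4, 146 and 114 in *Rragc* +/+ and 112, 179, 171 and 250 in *Rragc* S74N/+ livers. Of its *Rragc* S74N/+ livers, 3 lay above every *Rragc* +/+ liver, and the log2 fold change was 0.68 (SE 0.28, two-sided exact permutation p = 0.0857). *Iigp1*, the most abundant GTPase, read 1574, 1696, 2054 and 1592 against 1868, 1798, 2067 and 2847. The ranges overlapped, and the log2 fold change was 0.29 (SE 0.20, exact p = 0.114), or 0.15 without the 2-month-old liver. The guanylate-binding proteins *Gbp2*, *Gbp3* and *Gbp7*, side by side on chromosome 3, had log2 fold changes of 0.36, 0.75 and 0.23, and *Gbp2* fell to -0.16 without the 2-month-old liver. *Irgm1*, a regulator of the other GTPases, stood at -0.24 and its neighbour *Ifi47* at 0.34.

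The remaining effectors ran in both directions, with 6 of 10 higher in *Rragc* S74N/+ livers. *Rtp4*, an interferon-induced chaperone of membrane receptors (chromosome 16 from 23520291 to 23614222, forward strand), read 162, 137, 99.0 and 191 in *Rragc* +/+ livers. In *Rragc* S74N/+ livers it read 320, 335, 192 and 296. The groups did not overlap, but 190.6 and 191.7, the values of the 2.5-month-old pair, were nearly equal. Its log2 fold change of 0.96 (SE 0.26) had the smallest unadjusted p of any member, with a two-sided exact permutation p = 0.0286 and an adjusted p = 0.846 with limma. *Ifi27*, a small mitochondrial membrane protein (chromosome 12 from 103434211 to 103440239, forward strand), read 216, 238, 191 and 185 against 501, 478, 176 and 492. Among *Rragc* S74N/+ livers, 3 were more than 2-fold above the *Rragc* +/+ mean, and the 2.5-month-old liver was below every *Rragc* +/+ liver (log2 fold change 0.87, SE 0.31, exact p = 0.143).

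Lower means were found for 4 of these effectors. *Lgals9*, encoding galectin-9 and the most abundant member of the list, read 4592, 2855, 3456 and 2537 against 3117, 4186, 2695 and 3168. Its genotypes overlapped fully (log2 fold change -0.01, SE 0.23, two-sided exact permutation p = 0.971). *Lgals3bp*, a secreted scavenger-like protein, had a log2 fold change of -0.43 (SE 0.26), *Ifi35* of -0.57 (SE 0.33) and *Tor3a* of -0.08 (SE 0.30). Higher means without separation were found for *Ifi44* (0.60, SE 0.46), *Xaf1* (0.47, SE 0.56), *Bst2*, which encodes the virus tether tetherin (0.43, SE 0.35), and *Sp100* (0.24, SE 0.32).

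Livers of 1 genotype were not alike. *Rragc* S74N/+ replicate 4 was the highest of the 8 livers for 17 of 44 members, replicate 1 for 8, and *Rragc* +/+ livers together for 12. Replicate 4 exceeded every *Rragc* +/+ liver in 23 members, and replicates 1, 2 and 3 did so in 14, 15 and 10. *Rragc* +/+ replicate 3 lay above the median of the 8 livers in 29 members, close to *Rragc* S74N/+ replicates 2 and 4 at 30 and 33. *Rragc* +/+ replicate 1 was the lowest liver for 12 members.

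**Figure D4:**
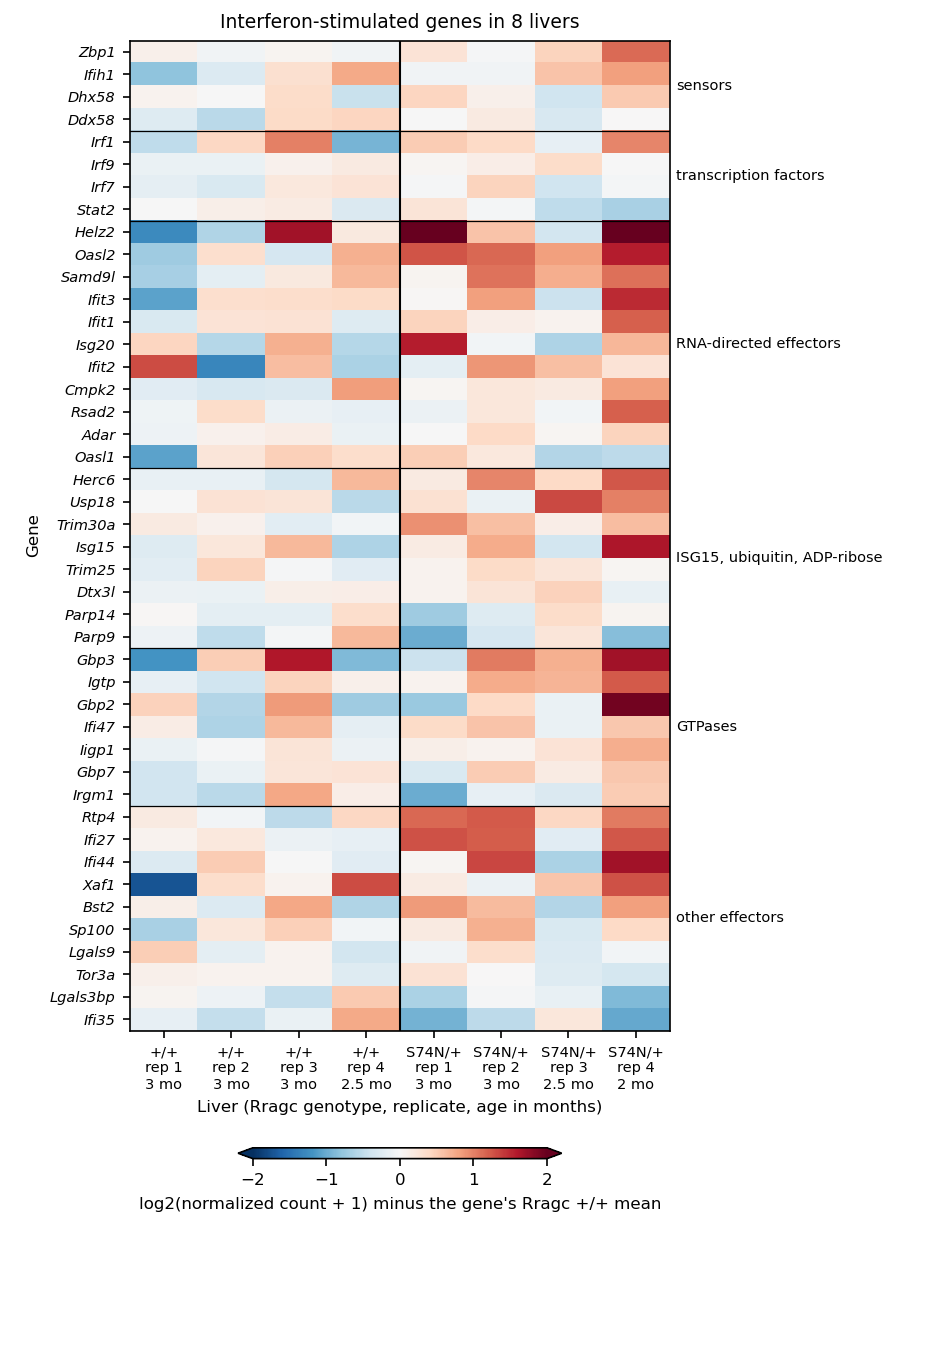
Level of each of the 44 members in each liver, as log2(normalized count + 1) minus the gene's mean in *Rragc* +/+ livers, with rows grouped by role and ordered by fold change. Red is above and blue below that mean, and colours saturate at 2 log2 units. The column of the 2-month-old *Rragc* S74N/+ liver holds the highest value of 17 members, and that of the 2.5-month-old one is paler.

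Ages were unequal between genotypes. Without the 2-month-old liver, 35 of 43 tested members had a higher mean in *Rragc* S74N/+ livers, the median log2 fold change was 0.18 and the mean level differed by 0.21. The values for *Oasl2*, *Rtp4*, *Ifi27* and *Trim30a* were then 1.08, 0.93, 0.75 and 0.55. Those of *Ifi44*, *Gbp3*, *Irf1*, *Xaf1*, *Cmpk2* and *Ifih1* were 0.25, 0.44, 0.25, 0.20, 0.15 and 0.14, each over 1.5 times smaller than with it. Among 3-month-old mice (3 *Rragc* +/+ and 2 *Rragc* S74N/+), 36 of 44 members were higher, with a median of 0.20. With age as a covariate, 37 of 44 were higher, the median was 0.23 and the mean level differed by 0.26. The 2.5-month-old pair had mean levels of 6.42 and 6.44, with 24 of 44 members higher in the *Rragc* S74N/+ liver. At 2 months there was no *Rragc* +/+ liver, so age and genotype cannot be told apart for that animal.

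Albumin reads were high in the same livers as the members. The count of *Alb* was 68581, 72360, 166784 and 57178 in *Rragc* +/+ livers and 134887, 137256, 80712 and 252840 in *Rragc* S74N/+ livers. The 4 livers with the highest counts were *Rragc* +/+ replicate 3 and *Rragc* S74N/+ replicates 1, 2 and 4, which were also the 4 with the highest mean level of members. Not every hepatocyte marker did so. *Apoa1* read 91895, 75283, 82231 and 82918 against 53450, 79109, 72410 and 62047 (log2 fold change -0.33). Of the 5 tested hepatocyte markers, 4 had a higher mean in *Rragc* S74N/+ livers, *Alb* among them. Mitochondrially encoded genes took 16.1% to 23.1% and 16.3% to 21.6% of reads. The part of these differences between libraries in the members' values was not tested.

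Markers of monocytes, neutrophils, dendritic cells and lymphocytes were scarce beside those of hepatocytes and Kupffer cells. The liver label fitted its markers, since 5 hepatocyte genes summed to between 233760 and 340633 in *Rragc* +/+ and between 255088 and 458479 in *Rragc* S74N/+ livers. The 10 Kupffer cell markers, of resident macrophages, summed to between 3112 and 4827 and between 3056 and 5028, with 6 of 10 higher and none past the test. Of 5 monocyte markers, 3 were listed and 2 tested (*Chil3* and *F13a1* were not analysed here). Both were higher, but both reached the mean of 10 only through their *Rragc* S74N/+ livers, so that direction is tied to the filter. The listed 3 summed to 18.6, 25.3, 38.2 and 9.34 in *Rragc* +/+ and 90.9, 56.9, 35.7 and 81.6 in *Rragc* S74N/+ livers. *Plac8* alone gave 62.4 and 59.6 of the sums in *Rragc* S74N/+ replicates 1 and 4. The sums of the 3 overlapped in 1 liver of each genotype, and their part in the members' values was not tested.

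Markers of the other cell types did not separate the genotypes by their sums, apart from the kidney. Of 7 neutrophil markers 4 were listed (*Ly6g*, *Ngp* and *Mpo* were not analysed here), with sums of 41.0 to 142 and 35.7 to 97.9. Plasmacytoid dendritic cells, a main source of type I interferon, had 2 of 5 markers listed and sums of 3.74 to 41.0 and 12.4 to 16.7. B cell markers summed to 16.8 to 46.6 and 26.7 to 55.5, T cell markers to 18.7 to 51.4 and 11.1 to 25.3, and natural killer cell markers to 7.48 to 14.9 and 7.80 to 21.3. Conventional dendritic cell markers summed to 12.1 to 14.9 and 2.75 to 20.4, sinusoidal endothelial markers to 1043 to 1358 and 968 to 1400, stellate cell markers to 1840 to 2167 and 1647 to 2234, and cholangiocyte markers to 124 to 373 and 100.3 to 353. Kidney tubule markers, checked as a sign of carried-over tissue, were lower in *Rragc* S74N/+ livers, at 23.7 to 56.9 against 80.6 to 181. Most of that was *Kap* (log2 fold change -2.20). No marker passed the adjusted limma test.

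Beyond the members, a further 100 genes of the interferon pathway were counted, of which 82 were listed and 65 tested. They were chosen with earlier results of these data known, so they are no independent check of the members. Of the 65, 47 (72.3%) had a higher mean in *Rragc* S74N/+ livers, beside 51.3% of all tested genes, and 0 passed the adjusted limma test. Their median log2 fold change was 0.20, or 0.12 without the 2-month-old liver. At an unadjusted p under 0.05, 4 were higher (6.15%, beside 2.37% of all genes) and 1 was lower (1.54%, beside 2.8%). The 11 interferon ligand genes of the list were not analysed here.

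Receptors and their kinases had small differences relative to their spread. *Ifnar1* and *Ifnar2*, the type I interferon receptor chains, had log2 fold changes of 0.04 (SE 0.32, two-sided exact permutation p = 0.857) and -0.01 (SE 0.21, exact p = 0.943). Both values changed sign with DESeq2 and edgeR and with some sets of livers. *Ifngr1* and *Ifngr2*, the interferon gamma receptor, stood at 0.19 and 0.33 with exact p = 0.486 and 0.171. Of the Janus kinases, *Jak1* and *Tyk2* stood at 0.08 and -0.28 with exact p = 0.571 and 0.486. *Jak2* had the largest value of the group, 0.48 (SE 0.51, exact p = 0.571). Of 8 tested genes in this group, 6 had a higher mean (median 0.14).

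Among signal transducers, *Irf8*, a factor of macrophage and dendritic cell identity, read 69.9, 91.7, 58.0 and 52.3 in *Rragc* +/+ and 128, 96.0, 91.4 and 153 in *Rragc* S74N/+ livers. Only the values of 91.7 and 91.4 broke its separation (log2 fold change 0.77, SE 0.27, two-sided exact permutation p = 0.0571). Upstream, *Ticam1*, the adaptor of the RNA sensor TLR3, was the pathway gene with a lower value at an unadjusted p under 0.05, at 98.8, 97.3, 45.3 and 52.3 against 38.6, 32.9, 59.1 and 39.2 (log2 fold change -0.73, SE 0.33, exact p = 0.0857). Of 8 tested sensing genes 5 had a higher mean (median 0.12), as did 3 of 5 transducers and 3 of 5 negative regulators (median 0.25).

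Of the other interferon-stimulated genes, 30 of 39 tested were higher in *Rragc* S74N/+ livers (median log2 fold change 0.21). Among the higher ones, *Gbp4* and *Gbp5* reached the mean of 10 only through *Rragc* S74N/+ livers, with *Rragc* +/+ means of 9.49 and 7.51. *Phf11d* read 1.86, 18.7, 12.7 and 8.41 against 20.2, 25.8, 21.2 and 22.0, without overlap (log2 fold change 1.33, SE 0.59, two-sided exact permutation p = 0.0286). Without *Rragc* +/+ replicate 1, its lowest liver, the value was 0.76. *Slfn2*, a Schlafen gene of lymphoid and myeloid quiescence, read 10.3, 28.1, 21.2 and 25.2 against 29.4, 35.6, 33.4 and 51.4, also without overlap (log2 fold change 0.85, SE 0.39, exact p = 0.0286). *Ifi27l2a*, a relative of *Ifi27*, read 66.2, 23.4, 25.5 and 87.8 against 64.3, 131, 82.5 and 68.5, with overlap (log2 fold change 0.92, SE 0.42, exact p = 0.229). *Ptpn6*, of the negative regulators, was also wholly higher (147 ± 6.59 against 176 ± 22.0, SD, n = 4 each). *Sp110*, an interferon-stimulated gene, was wholly lower (28.0 ± 4.72 against 20.9 ± 1.56). Both were picked out after their values were seen. Of the 65 tested pathway genes, 3 (4.62%) lay wholly higher, beside 1.3% of all genes. Wholly lower was 1 (1.54%), beside 1.64% of all genes.

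Several members are neighbours in the genome. Members lay on 15 chromosomes, and 15 of them fell in 6 groups of neighbours less than 500000 bases apart. The *Ifit* group on chromosome 19 and the *Gbp* group on chromosome 3 each had log2 fold changes of 1 sign, as did *Rsad2* and *Cmpk2* on chromosome 12 (both 0.31). The groups of *Oasl2* with *Oasl1*, *Ifi47* with *Irgm1*, and *Dtx3l* with *Parp9* and *Parp14* held both signs.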

How the data were processed

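RNA was extracted from 8 whole livers, and 3′ end libraries were made and sequenced with single reads. The RNA integrity number averaged 7.2 per the labels. Alignment by the authors used GRCm38, TopHat2 2.0.10, Bowtie 1.0.0 and SAMtools 0.1.19, stranded counting used HTSeq 0.6.1, and scaling used DESeq. What was deposited is a signal, the normalized read count per gene and liver. All of them (100%) were whole multiples of 1 step per liver (tolerance 0.001), so whole reads were recovered; size factors were 0.707 to 1.23.

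Genotypes were compared with limma 3.58.1 in R 4.3.3 (mean-variance trend, genotype as the only term, 4 against 4) on log2(value + 1), for genes whose mean reached 10, with Benjamini-Hochberg adjustment at 0.05. Fold changes understate those of low genes. Single genes were also tested over all 70 labellings of the livers, for which the smallest p is 0.0286. Alternatives were edgeR 4.0.16 and DESeq2 1.42.0 on recovered reads, other pseudocounts (0.1 and 5), filters, scalings and samples. The scripts were tested on simulated data.

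The members and lists were chosen with earlier results of these data known. Values per liver are given for *Irf7*, *Irf9*, *Stat2*, *Isg15* and, in each role group, the most abundant member and the 2 with the lowest p. Of the pathway list, chosen receptors and kinases, and genes with an unadjusted p under 0.05, are named. A further gene fixed by the naming rule is not reported here. Others are examples of their group. Coordinates come from GENCODE M21 (GRCm38). Chi-square per degree of freedom between replicates was 16.7 to 69.1, so no library was entered again. As no molecular identifiers are mentioned for liver, a read is not a molecule.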

Additional observations from a re-analysis of the deposited data

Results flagged for a closer look

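In groups of 4 livers, a single liver stood apart from the other 3 for 2 genes out of 66 groups examined, fewer than the 3.3 that chance would give at this rule. *Rsad2* had a log2 level of 7.604 in *Rragc* +/+ replicate 2, against 7.07 to 7.14 in the other *Rragc* +/+ livers. *Ifi27* had a log2 level of 7.47 in *Rragc* S74N/+ replicate 3, the 2.5-month-old liver, while its 3 companions lay at 8.90 to 8.97.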

How the results depend on the processing

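No member passed the adjusted threshold under any of the 12 other settings or with any liver left out. The number of genes called over the whole table, 1 with limma, was 10 with DESeq2 and 0 among 3-month-old mice alone, with age as a covariate, without the variance trend and without both 2.5-month-old livers (a setting added after seeing the data), and it was 0 to 2 with a liver left out. Members with a higher mean in *Rragc* S74N/+ livers numbered 20 of 29 tested (69.0%) at a mean of at least 50, beside 47.6% of all genes at that mean. They numbered 32 to 37 with a liver left out. The members' median log2 fold change was then 0.18 to 0.42 and the difference in mean level 0.21 to 0.40; the lowest of both came without *Rragc* S74N/+ replicate 4. The counting tools give no mean log2 level.

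Of 378 values of 32 named genes under other settings, 19 changed sign, in 7 genes with main values from -0.24 to 0.31. Among 3-month-old mice *Irf7* was at 0.30, *Stat2* at 0.015, *Ddx58* at 0.23, *Rsad2* at -0.0047, *Lgals9* at 0.019 and *Ifnar1* at -0.19. Without both 2.5-month-old livers *Irf7* was at 0.22, *Ddx58* at 0.20 and *Ifnar1* at -0.25. With age as a covariate *Irf7* was at 0.024 and *Lgals9* at 0.090. *Irf7* was at 0.016 with DESeq2, 0.018 with edgeR, 0.0017 with TMM and 0.0039 with upper-quartile scaling. *Ifnar1* was at -0.034 with DESeq2 and -0.035 with edgeR, and *Ifnar2* at 0.0094 and 0.011. The cause was not tested. With a liver left out, ranges that crossed 0 were -0.23 to 0.039 for *Rragc*, -0.16 to 0.13 for *Irf7*, -0.22 to 0.11 for *Ddx58*, -0.13 to 0.15 for *Lgals9*, -0.18 to 0.27 for *Ifnar1*, -0.15 to 0.085 for *Ifnar2* and -0.0054 to 0.19 for *Jak1*. Other members whose values crossed 0 with a liver left out were *Oasl1*, *Ifit2*, *Parp14*, *Gbp2*, *Irgm1*, *Xaf1* and *Tor3a*. No paired analysis was possible because replicate numbers were given in sample order and name no shared litter or day.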
